A study of Mus musculus with 12 samples.

Results

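The cells of the neocortex that send axons to other regions are the glutamatergic projection neurons, and during development their identity is set by transcription factors that are made in some layers and not in others. The 9 factors described here were taken as a named list: Fezf2, Bcl11b, Tbr1 and Foxp2 for the deep layers, Cux1, Cux2 and Rorb for the upper layers and layer 4, and Neurod2 and Neurod6, which projection neurons of all layers share. They are 9 of the 21883 protein-coding genes placed on chromosomes 1 to 19, X and Y, and the peaks used are those that overlap the gene or the 20 kb on either side of it. Within these windows lay 108 of the 97961 peaks of the one complete list of the retention control group (RC replicate 3), 78 of the 80735 peaks of EXT replicate 1 and 131 of the 123375 peaks of EXT replicate 2.

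Chromatin accessibility was measured by ATAC-seq, in which a transposase cuts open DNA, in cells from the infralimbic part of the prefrontal cortex. The donors were C57BL/6 male adults aged 10 to 12 weeks, fear-conditioned with 3 tone and shock pairings in one context (A) and moved to another (B) one day later, where the EXT mice heard 60 tones (extinction training) and the RC mice spent as long with no tone. Tissue was taken directly afterwards, that of 5 mice was pooled per library, and 50000 cells that stained for both NeuN, a neuronal nuclear protein, and Arc, an activity-induced protein, went into each. Every library thus shares the fear conditioning and the sort for Arc and NeuN, and no library of other cells was set beside them.

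Fezf2, a zinc finger protein, directs layer 5 neurons to subcerebral targets, and Bcl11b (also called Ctip2) acts downstream of it in the same neurons. Tbr1, a T-box protein, is required for corticothalamic neurons of layer 6, where the forkhead protein Foxp2 is also made. Cux1 and Cux2 are homeodomain proteins of upper-layer neurons that shape dendrites and synapses, Rorb is a nuclear receptor of layer 4, and Neurod2 and Neurod6 are basic helix-loop-helix proteins that bind E-boxes and take part in glutamatergic differentiation.

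The lists of RC replicates 1 and 2 end on chromosome 1 as held here, and no member lies on that chromosome, so the values below come from RC replicate 3 and from EXT replicates 1 and 2, and where 3 values are given together they stand in this order. These libraries held 73.8, 65.0 and 57.7 M tags. With 1 RC list against 2 EXT lists an exact permutation test cannot give a p below 0.333, so no test was made and each value is a description. In sorted bulk material, fewer cells with an open region and less access per cell cannot be told apart. Promoter peaks were present in all 3 lists at 5 of 5 projection neuron markers and at 3 of 4 markers of the sorted population. The exception among the latter was Rbfox3, which encodes NeuN and had a promoter peak only in EXT replicate 2. That peak was among the weakest of its list, with a fold of 1.88 at percentile 0.094. Markers present in all 3 lists could be weak as well. The strongest Arc promoter peak stood at percentiles 8.99, 1.42 and 42.4, with both gene ends used because Arc has no listed start. Slc17a7, a projection neuron marker, stood at 25.7, 24.8 and 5.89. Syt1, of the sorted population, was higher at 82.5, 84.3 and 89.6, as was Slc17a6, of projection neurons, at 74.3, 81.4 and 62.4. Of 6 interneuron markers, none had a promoter peak in RC replicate 3 or EXT replicate 1 and 1 (Pvalb) had one in EXT replicate 2. Of the glial and vascular markers, 2 of 6 for oligodendrocytes, 1 of 5 for astrocytes, 2 of 5 for microglia and 1 of 4 for endothelial cells had a promoter peak in all 3 lists, and their part in the results was not tested. Among those present, Olig1 (oligodendrocytes) had folds at percentiles 99.9, 99.9 and 96.9 of the 3 lists, Cldn5 (endothelium) at 98.6, 98.4 and 86.0, Sall1 (microglia) at 98.7, 87.7 and 72.4 and Sox9 (astrocytes) at 94.0, 94.2 and 43.0. Mog, Gfap, Aldh1l1, Cx3cr1 and P2ry12 had no promoter peak in any list.

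A promoter is taken here as the 1 kb on either side of a transcription start of the RefSeq promoter table. That table holds 8 of the 9 genes. Foxp2 has no entry, and both ends of the gene were used for it. Peaks reached into the 300 bases around the first listed start (250 before it and 50 after) of 5 genes, which are shown because they let the lists be set side by side base by base. Their sequences follow, 5′ to 3′ on the strand of the gene, from RefSeq on GRCm38.p6 (mm10), with capitals for the bases that lie inside a peak of at least 1 list. They are Tbr1 (chr2:61804203-61804502, plus strand), Rorb (chr19:19111147-19111446, minus strand), Neurod2 (chr11:98329596-98329895, minus strand), Neurod6 (chr6:55681214-55681513, minus strand) and Fezf2 (chr14:12345816-12346115, minus strand).
Tbr1: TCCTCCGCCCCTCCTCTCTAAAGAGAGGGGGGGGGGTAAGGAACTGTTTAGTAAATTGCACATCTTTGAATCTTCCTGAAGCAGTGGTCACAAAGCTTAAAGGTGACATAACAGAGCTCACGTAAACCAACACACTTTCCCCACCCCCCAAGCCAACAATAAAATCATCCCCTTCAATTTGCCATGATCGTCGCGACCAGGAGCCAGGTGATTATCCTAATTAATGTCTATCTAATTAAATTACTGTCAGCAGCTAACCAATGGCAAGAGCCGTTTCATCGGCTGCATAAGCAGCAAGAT
Rorb: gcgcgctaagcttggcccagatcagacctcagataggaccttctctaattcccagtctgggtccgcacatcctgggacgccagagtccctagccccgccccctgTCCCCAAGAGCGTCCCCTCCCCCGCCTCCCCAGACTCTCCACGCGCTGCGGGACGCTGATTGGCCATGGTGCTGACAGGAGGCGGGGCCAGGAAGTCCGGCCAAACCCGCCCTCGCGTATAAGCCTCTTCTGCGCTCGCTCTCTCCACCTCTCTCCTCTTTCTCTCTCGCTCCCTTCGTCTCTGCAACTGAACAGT
Neurod2: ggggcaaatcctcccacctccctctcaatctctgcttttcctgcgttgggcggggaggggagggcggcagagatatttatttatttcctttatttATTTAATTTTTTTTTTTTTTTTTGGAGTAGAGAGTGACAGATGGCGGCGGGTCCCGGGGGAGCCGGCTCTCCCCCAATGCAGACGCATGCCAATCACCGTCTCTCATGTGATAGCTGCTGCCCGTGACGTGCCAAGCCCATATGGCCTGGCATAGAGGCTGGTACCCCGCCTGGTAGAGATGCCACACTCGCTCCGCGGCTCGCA
Neurod6: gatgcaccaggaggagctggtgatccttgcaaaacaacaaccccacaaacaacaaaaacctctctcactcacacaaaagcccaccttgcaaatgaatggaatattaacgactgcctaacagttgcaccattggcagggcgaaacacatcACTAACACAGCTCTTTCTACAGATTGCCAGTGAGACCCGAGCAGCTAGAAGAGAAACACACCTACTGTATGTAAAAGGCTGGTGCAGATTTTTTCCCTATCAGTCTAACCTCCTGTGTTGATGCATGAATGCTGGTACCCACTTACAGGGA
Fezf2: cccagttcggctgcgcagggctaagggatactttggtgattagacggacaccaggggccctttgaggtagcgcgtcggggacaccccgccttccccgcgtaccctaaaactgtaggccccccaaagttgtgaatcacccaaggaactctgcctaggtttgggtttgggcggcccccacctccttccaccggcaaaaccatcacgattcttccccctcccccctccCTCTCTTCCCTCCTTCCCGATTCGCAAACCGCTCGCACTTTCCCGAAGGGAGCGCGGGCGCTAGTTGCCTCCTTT

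Peaks covered all 300 bases at Tbr1, and 222 of these lay in peaks of at least 2 lists, but no base lay in all 3. At Neurod6, 151 bases lay in a peak of some list and 80 in peaks of all 3. The Rorb stretch had 196 bases in a peak, of which 193 were shared by both EXT lists. At Neurod2 the 205 covered bases came from EXT replicate 2 alone, and at Fezf2 the 75 covered bases came from RC replicate 3 alone. The 300 bases around the listed starts of Bcl11b, Cux1 and Cux2 held no peak base, since their promoter peaks lie further from the start.

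The letters of these stretches differ between genes as well. GC content was 80.3% around the first Cux2 start, at percentile 99.1 of the 32851 promoters of the table, and 43.0% at Bcl11b, at percentile 16.5. Tbr1 (46.0%) and Neurod6 (46.3%) were also below the median promoter of 52.7%, while Rorb (63.7%) and Fezf2 (61.3%) were above it. A set of 7 short words was searched on both strands, with N for any base. They were the E-box CANNTG, the AP-1-like word TGANTCA, the CRE TGACGTCA and the T-box site AGGTGTGA. The others were the homeobox core TAATTA, the box CCAAT and the CUX site ATCGAT. No word contains another whole. The share of all promoters that hold each word is 72.3% for the E-box, 7.81% for the AP-1-like word and 1.79% for CRE. It is 1.28% for the T-box site, 5.29% for the homeobox core, 37.4% for CCAAT and 0.925% for the CUX site.

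The Neurod2 stretch holds 3 E-boxes, CAGATG at 118 bases before the start, CATGTG at 51 and CATATG at 17, and all lie inside the EXT replicate 2 peak. At Tbr1 an E-box, CAGGTG, lies 46 bases before the start and a homeobox core begins 33 and again 18 bases before it, each inside the peak of 1 list. The Rorb stretch shown holds 1 E-box, CAACTG, 38 bases after the first start and inside the peaks of both EXT lists. Around the second Rorb start, 3 E-boxes and 1 AP-1-like word, TGATTCA, lie outside every peak. At Fezf2 an AP-1-like word, TGAATCA, lies 121 bases before the start, outside every peak. A CUX site lies 72 bases before the second Cux2 start, also outside every peak. The 2 E-boxes of Neurod6, CAAATG at 162 bases before the start and CAGTTG at 132, lie outside every peak. These matches describe letters only, and most promoters hold an E-box.

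Of the 9 genes, 7 had a promoter peak in RC replicate 3, and 7 and 9 did in EXT replicates 1 and 2. Over all protein-coding genes the shares were 55.3%, 53.4% and 60.4%. Fezf2, Bcl11b, Tbr1, Foxp2, Cux1 and Neurod6 had one in all 3 lists, 6 of 9, where 49.4% of protein-coding genes did. No member lacked a promoter peak in every list, against 36.9% of protein-coding genes. By layer, all 4 deep-layer genes were peaked in every list, while of the upper-layer genes only Cux1 (1 of 3) was, and of the shared genes only Neurod6 (1 of 2). In EXT replicate 2 alone, all deep-layer and all upper-layer genes were peaked. With peaks of at most 165 bp left out, a limit chosen after the lists were seen, the genes peaked in all 3 lists were 3 (Fezf2, Tbr1 and Neurod6), Foxp2 was peaked in 1 list, and Cux1 and Cux2 in none. Deep-layer genes were then peaked at 3, 2 and 4 of 4 and upper-layer genes at 0, 1 and 1 of 3 in the 3 lists, so the counts fell and their order stayed. With a promoter window of 500 bp, EXT replicate 1 had 2 of 4 deep-layer and 2 of 3 upper-layer genes peaked. EXT replicate 2 then had 3 of 4 and 3 of 3, so that the order did not hold in either EXT list. RC replicate 3 kept it, with 4 of 4 and 2 of 3. With a promoter window of 2 kb, RC replicate 3 had 4 of 4 deep-layer and 3 of 3 upper-layer genes peaked. The order was then lost in that list too, and EXT replicate 1 kept it, with 4 of 4 and 2 of 3.

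**Figure D1:**
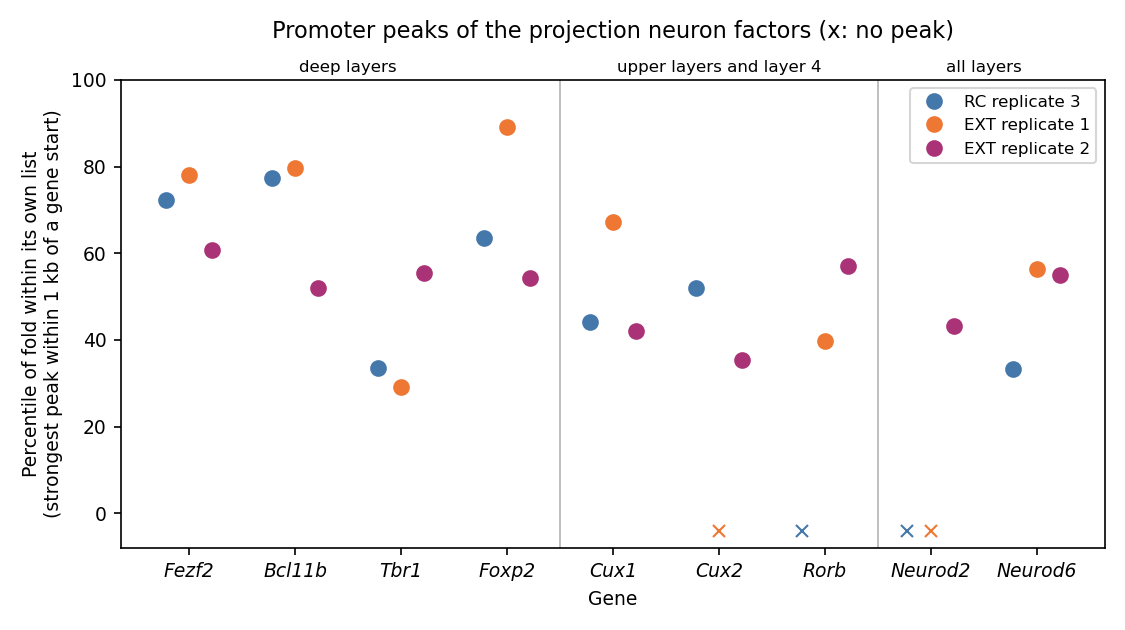
Percentile of fold enrichment within its own list (y axis, 0 to 100) of the strongest peak within 1 kb of a start of each gene (x axis) in RC replicate 3 and EXT replicates 1 and 2; points are single libraries and crosses below 0 mark no peak. The 4 deep-layer genes have a point for each library, Rorb lacks one in RC replicate 3, Cux2 in EXT replicate 1, and Neurod2 has one in EXT replicate 2 only.

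Fold enrichment is the authors' ratio of summit tags to the background around them in that library. Folds of different lists are given side by side as descriptions, and the percentile of a fold is its place within its own list. The Fezf2 promoter peak lay inside the gene, 857 to 878 bp past the start, and had the same lower bound, position 12344806 of chromosome 14, in all 3 lists. Its summit carried 51 tags in RC replicate 3 (fold 5.33, percentile 72.2), 51 in EXT replicate 1 (fold 5.59, percentile 78.2) and 48 in EXT replicate 2 (fold 5.01, percentile 60.7). All 3 libraries thus placed it above the median of their lists. At the start itself, RC replicate 3 had a further peak of fold 2.33, at percentile 3.86, which neither EXT list held. With a promoter window of 500 bp that weak peak is the only one left, and Fezf2 is then peaked in 1 list.

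Bcl11b had its strongest promoter peak inside the gene too, 486 to 673 bp past the start, with its lower bound at position 108002580 of chromosome 12 in every list. The fold was 5.78 in RC replicate 3 (93 tags, percentile 77.5), 5.78 in EXT replicate 1 (65 tags, percentile 79.8) and 4.47 in EXT replicate 2 (63 tags, percentile 52.0). The last of these is close to the middle of its list, and the others are well above it. Upstream of the start, RC replicate 3 had a peak of fold 2.40 and EXT replicate 2 one of fold 3.08, while EXT replicate 1 had none.

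At Tbr1 several weak peaks stood side by side. RC replicate 3 had 3, with folds of 2.95, 2.55 and 3.20. EXT replicate 1 had 2, with folds of 2.74 and 3.09, and EXT replicate 2 had 2, with folds of 3.57 and 4.68. Only the last, 674 bp wide and spanning the start, was above the median of its list, at percentile 55.4. Upstream of the start the 3 lists overlapped, and the peaks of RC replicate 3 and EXT replicate 1 ended at the same base, 724 bp before it. Nearer to the start they did not line up: the peak of RC replicate 3 began 9 bp after the start and that of EXT replicate 1 ended 69 bp before it.

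The Foxp2 peak lay 101 to 135 bp inside the lower end of the gene and ended at position 14901635 of chromosome 6 in each list. Its fold was 4.62 in RC replicate 3 against 7.24 and 4.62 in EXT replicates 1 and 2, with 31, 44 and 25 tags. EXT replicate 1 stood highest, at percentile 89.2 against 63.4 and 54.2, so the EXT libraries fell on both sides of the RC library. The widths were 152, 160 and 186 bp. No peak was found within 1 kb of the upper end.

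Cux1 had a narrow peak with its lower bound at position 136565758 of chromosome 5 in all lists, 64 to 74 bp past its start, with folds of 3.61 in RC replicate 3 against 4.66 and 3.99 in EXT replicates 1 and 2. Its width of 150 to 160 bp is about the length to which a single tag was extended. For Cux2 the promoter peak was 150 bp wide in RC replicate 3 (fold 3.94, 42 tags) and 160 bp wide in EXT replicate 2 (fold 3.70, 45 tags), 273 to 283 bp before the first start, and absent from EXT replicate 1. Presence at Cux2 therefore did not follow the groups.

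Rorb was peaked at its first start in both EXT lists, with a fold of 3.38 in EXT replicate 1 (20 tags) and of 4.80 in EXT replicate 2 (26 tags). RC replicate 3 had no peak there. Its nearest one, of fold 2.74, lay 1008 bp inside the gene, just beyond the 1 kb limit, and with a limit of 2 kb Rorb counts as peaked in all 3 lists. The EXT replicate 1 peak is weak: with only peaks of −log10 q of at least 5 kept, Rorb is peaked in 1 list.

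Neurod6 had a peak across its start in each list, 240 to 323 bp wide. The fold was 3.19 in RC replicate 3 (27 tags), 4.01 in EXT replicate 1 (28 tags) and 4.65 in EXT replicate 2 (30 tags), at percentiles 33.2, 56.3 and 55.1. The 10 kb around the summits held 518, 415 and 378 tags, in libraries of 73.8, 65.0 and 57.7 M tags. As a ratio to the genome average of each library, this was 1.31, 1.19 and 1.23. The summit tags given here are not scaled to the depth of the library. Neurod2 was peaked only in EXT replicate 2, where 83 tags gave a fold of 4.07 at percentile 43.2.

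The Neurod2 locus is crowded. Its window holds 7, 5 and 8 peaks in RC replicate 3 and EXT replicates 1 and 2, of which 5, 3 and 5 lie at promoters of other genes, and the surrounding background is high. MACS judges each summit against the tags within 5 kb on either side of it, or against the average of the genome where that is higher. From the deposited fold and pileup this background can be read back, and the deposited −log10 p followed from it and the pileup in 100% of the peaks with −log10 p under 200 (tolerance 1% plus 0.01). At the genome average, a summit of 15 tags passed in RC replicate 3 against 14 and 13 tags in EXT replicates 1 and 2. At 3 times that average, 33, 30 and 27 tags were needed. The Neurod2 promoter peak of EXT replicate 2 stood in a stretch with 1310 tags in 10 kb, 4.25 times the average of that library of 308 tags. A missing peak in such a stretch is therefore not the same as few tags, and how many tags RC replicate 3 and EXT replicate 1 had at this summit was not analysed here.

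Distal peaks are those in a window that touch no promoter of the gene or of another gene. Per 100 kb of window, Bcl11b had 17.2 in RC replicate 3 against 10.5 and 16.4 in EXT replicates 1 and 2, at percentiles 99.7, 97.0 and 98.4 of the windows of all protein-coding genes. Cux2 followed with 11.2, 7.31 and 13.3, at percentiles 94.8, 88.2 and 94.5, and Cux1 with 5.29, 5.84 and 9.18. The median window had 3.51, 2.47 and 4.52, and these 3 genes and Tbr1 were above it in each list. Foxp2 was low in each list, with 1.03, 0.861 and 1.38 at percentiles 26.0, 29.1 and 24.0. Rorb was below the median window as well, with 3.17, 0.907 and 2.72. Thus each layer group holds genes above and below it.

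**Figure D2:**
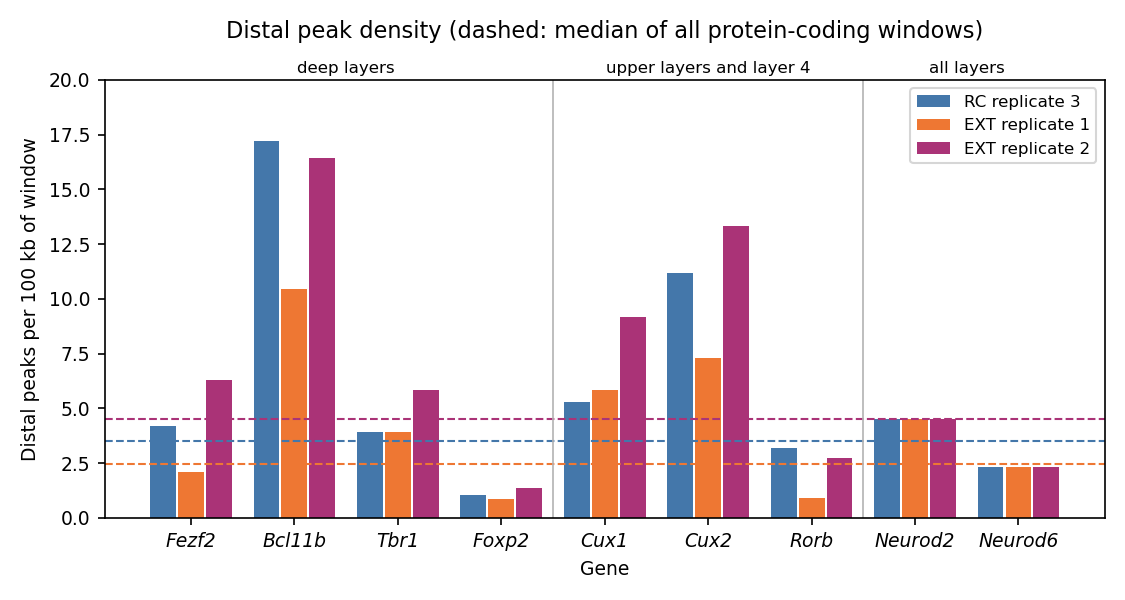
Distal peaks per 100 kb of window (y axis) for each gene (x axis) in RC replicate 3 and EXT replicates 1 and 2, with the median over the windows of all protein-coding genes in the same library as a dashed line. Bcl11b reaches 17.2 and Cux2 13.3, while Foxp2 stays at or below 1.38.

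Fezf2 had 4.18, 2.09 and 6.27 distal peaks per 100 kb and Tbr1 had 3.90, 3.90 and 5.85. These rest on 1 to 3 peaks per list, so that single peaks set them. The same holds for Neurod2, with 4.52 in each list, and Neurod6, with 2.30 in each.

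Summed by layer, the 4 deep-layer windows (813 kb) had 33, 22 and 36 distal peaks and the 3 upper-layer windows (812 kb) had 52, 40 and 70. The deep-layer density was 4.06, 2.70 and 4.43 per 100 kb and the upper-layer density 6.40, 4.92 and 8.62. The ratio of deep to upper was 0.634, 0.549 and 0.514, a mean of 0.566 ± 0.0617 (SD over 3 lists). It was below 1 in every list, but 1 gene decides it: Foxp2 gives 581 of the 813 kb, and without it the ratio was 1.81 in RC replicate 3 against 1.48 and 1.40 in EXT replicates 1 and 2, above 1 in each. Bcl11b then held 23 of the 27 deep-layer distal peaks in RC replicate 3, 14 of 17 in EXT replicate 1 and 22 of 28 in EXT replicate 2, so this ratio rests mostly on that gene. Leaving Foxp2 out was chosen after its values were seen. So the layers could not be ordered by distal peaks with these genes.

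Merged over the 3 lists, the distal peaks formed 147 regions. In all 3 lists lay 36 of them, 24.5% with an exact (Clopper-Pearson) 95% binomial interval of 17.8 to 32.3% that covers counting error only, against 21.8% over the windows of all protein-coding genes. By layer this was 11 of 49 deep-layer regions (22.4%), 25 of 91 upper-layer regions (27.5%) and 0 of 7 regions of the shared genes. Cux1 had 16 of 38 in all lists, Cux2 9 of 42, Bcl11b 8 of 31 and Foxp2 3 of 9. Fezf2, Tbr1, Rorb, Neurod2 and Neurod6 had none. The regions common to all lists thus came from 4 of the 9 genes.

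Both EXT lists and not RC replicate 3 held 7 regions, 4.76% of the 147, against 4.33% over all windows. Cux2 had 2 of these, and Bcl11b, Tbr1, Foxp2, Cux1 and Neurod2 had 1 each. The Tbr1 and Cux1 regions lay at the 5′ end of the gene span, just over 1 kb before the listed start. They count as distal because the span begins before that start. The count of 7 moves with the settings. With only peaks of −log10 q of at least 5 it was 2, and with lists cut to equal length it was 4. RC replicate 3 alone held 19 regions, 12.9%, against 12.4% over all windows, and EXT replicate 2 alone held 46, or 31.3%. Over all windows the share in EXT replicate 2 alone was 30.5%. EXT replicate 1 alone held 9 regions, 6.12%, against 10.5% over all windows. The other shares lay close to their background, and none of these differences was tested.

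**Figure D3:**
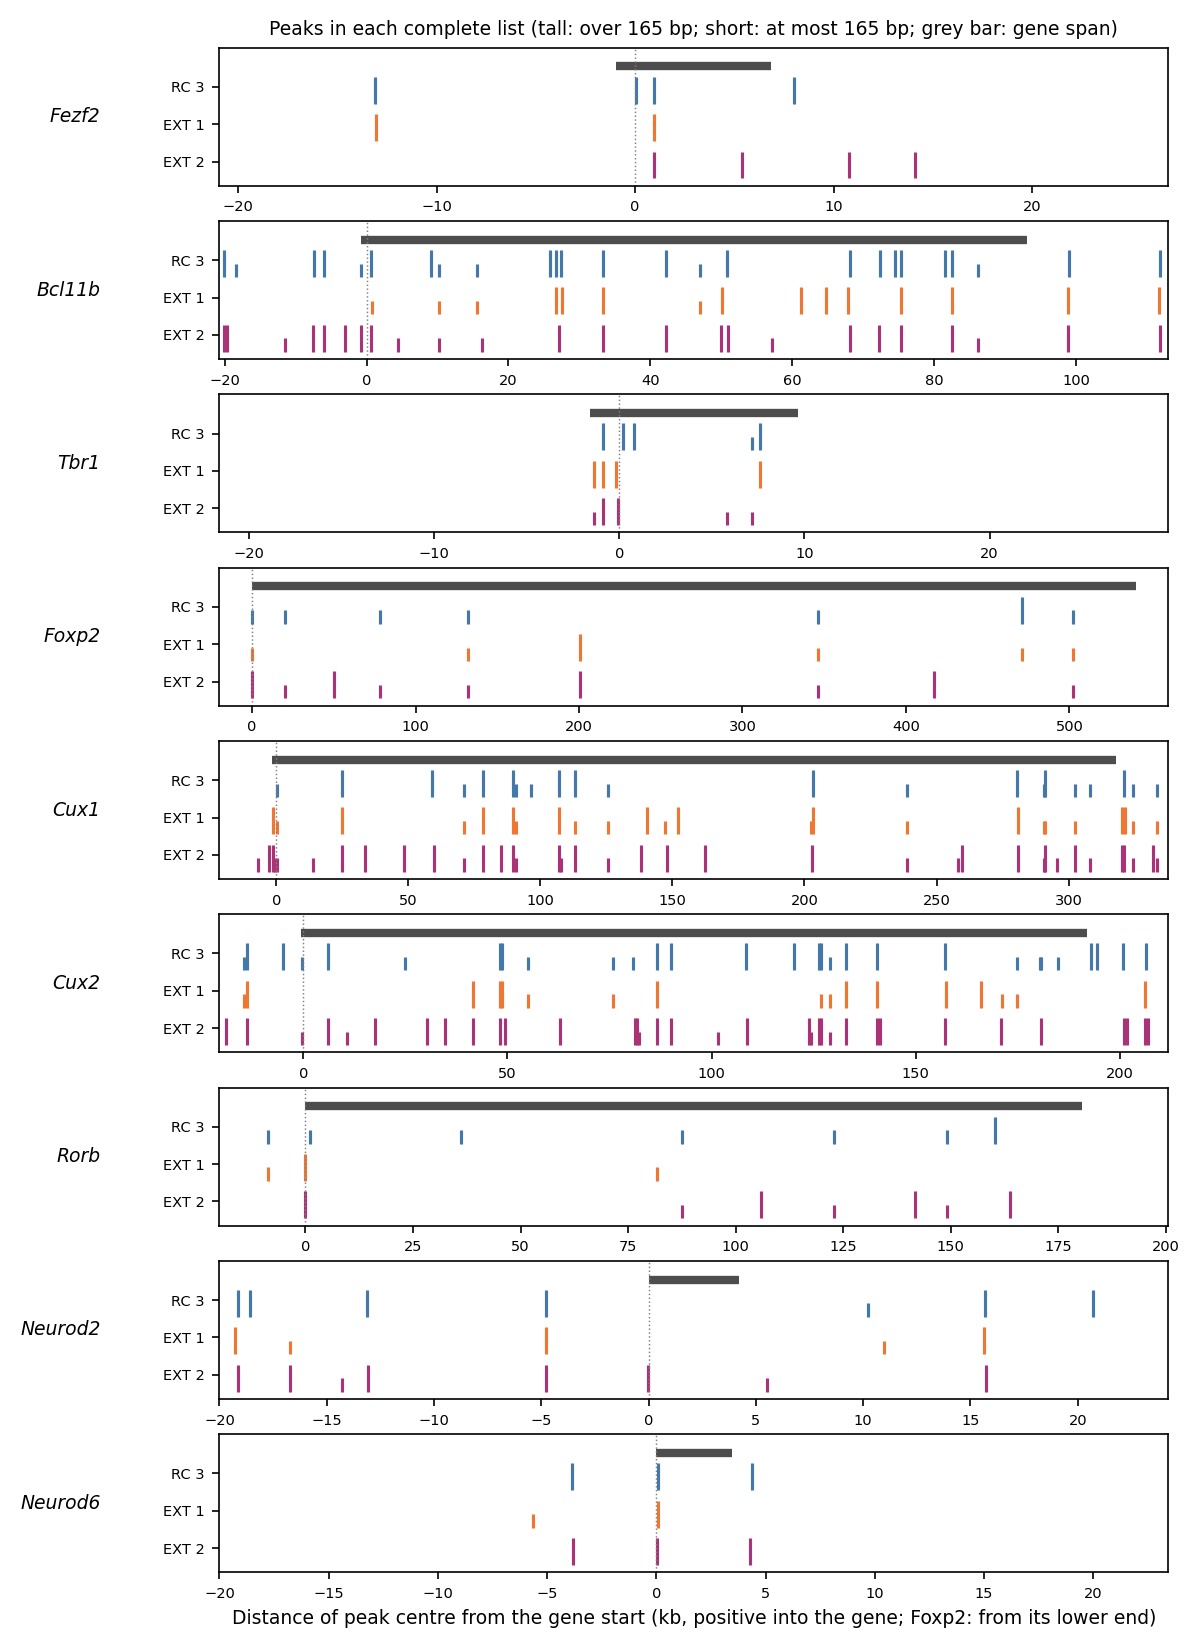
Peaks in the windows of the 9 genes by distance of the peak centre from the gene start (x axis, kb, positive into the gene; for Foxp2 from its lower end), with 1 row per library (RC 3, EXT 1 and EXT 2). Tall marks are peaks over 165 bp, short marks peaks of at most 165 bp and the grey bar is the gene; marks crowd along Bcl11b and Cux2, and those of Foxp2 are few and mostly short.

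For each gene 1 distal region is described, the one with the highest mean percentile of fold over the 3 lists (0 where a list has no peak). At Bcl11b it lay inside the gene, 33108 bp past the start (chr12:107969786-107970306), with folds of 4.63 in RC replicate 3 against 4.86 and 8.93 in EXT replicates 1 and 2, at percentiles 63.9, 70.5 and 89.0. Its summit carried 84, 56 and 149 tags, and its width of 521 bp sets it apart from the narrow regions below. Tbr1 had its region 7112 bp inside the gene, 160 bp wide, with a fold of 4.35 in RC replicate 3 and 10.4 in EXT replicate 2 and no peak in EXT replicate 1. The Fezf2 region lay 12865 bp before the start, with folds of 4.33 in RC replicate 3 and 3.06 in EXT replicate 1 and none in EXT replicate 2.

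In RC replicate 3 and in EXT replicate 2, the highest fold at any member was at Rorb, in a region 162 bp wide inside the gene (chr19:18961965-18962126). It was 14.3 in RC replicate 3 (98 tags, percentile 99.4) and 27.7 in EXT replicate 2 (155 tags, percentile 99.9), while EXT replicate 1 had no peak there. Its bounds were the same to the base in both lists. Foxp2 had a region 160 bp wide, 132073 bp from its lower end (chr6:15033422-15033581), with folds of 12.6, 9.33 and 9.24 in RC replicate 3 and EXT replicates 1 and 2 and the same bounds in all 3. So did Cux1, beyond the far end of the gene (chr5:136232206-136232365, 160 bp), with folds of 10.8, 10.9 and 8.42. Peaks at a promoter other than that of Cux1 lay between this region and the gene. The Cux2 region, 14566 bp before the start and 162 bp wide, had the same bounds in RC replicate 3 (fold 5.94) and EXT replicate 1 (fold 5.72). EXT replicate 2 had no peak there. A peak of RC replicate 3 at another promoter lay between this region and Cux2. At Neurod6 the region lay 3940 bp from the start, past the gene's end, with folds of 3.81 in RC replicate 3 and 4.68 in EXT replicate 2. Neurod2 had a region in RC replicate 3 only, with a fold of 3.17, and a peak at another promoter lay between it and the gene.

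Regions of high fold were not always narrow: a Cux1 region of 284 bp (chr5:136274832-136275115) had folds of 7.81, 3.71 and 11.6. Of the 91 regions at the members that lay in 2 or 3 lists, promoters included, 26 had the same start and end in at least 2 lists, or 28.6%, against 24.2% over all windows. The count was 10 of 21 at Cux1, 5 of 8 at Foxp2, 3 of 5 at Rorb, 4 of 20 at Bcl11b and 3 of 22 at Cux2. Peaks of at most 165 bp made up 6 of 7, 5 of 6 and 5 of 9 of the Foxp2 peaks and 6 of 7, 2 of 3 and 3 of 7 of the Rorb peaks in RC replicate 3 and EXT replicates 1 and 2. At Bcl11b they were 6 of 25, 4 of 15 and 6 of 24. Over the whole lists they were 40.8%, 38.2% and 31.2% of peaks. All duplicate tags were kept in peak calling, and the part of copied or misplaced reads in the narrow peaks was not tested. Without them the merged distal regions fell from 147 to 93 and the ratio of deep to upper density was 0.694 (0.845, 0.789 and 0.448 by list).

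The background beneath the peaks gives another reading of each locus, since it counts the tags of 10 kb and not those of the summit. It is given as the ratio to the genome average of the library, which was 395 tags per 10 kb in RC replicate 3 against 348 and 308 in EXT replicates 1 and 2. A ratio of 1 stands for any value at or below the average. The tags came out whole (tolerance 0.1 tag) for 99.997% or more of the peaks above it. This measure was chosen after the lists were seen.

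Bcl11b stood in dense surroundings, with a median ratio over its peaks of 2.84 in RC replicate 3 against 2.00 and 2.85 in EXT replicates 1 and 2. The median ratio was 2.20, 2.17 and 3.09 at Cux2 and 2.61, 2.28 and 3.59 at Neurod2. All 3 genes exceeded the median over windows with at least 3 peaks, which was 1.52, 1.56 and 1.68. Tbr1 lay nearer to it, with 1.94, 1.62 and 1.84, as did Fezf2, with 1.41, 1.30 and 1.83. The EXT replicate 1 values of Fezf2 and Neurod6 come from 2 peaks each. Cux1 had 1.12, 1.20 and 1.25 and Neurod6 had 1.31, 1.10 and 1.23, below the median window in each list.

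Foxp2 and Rorb formed the other end. Every one of the 7, 6 and 9 Foxp2 peaks and of the 7, 3 and 7 Rorb peaks had a background at or below the genome average, where 32.0%, 28.8% and 30.3% of all peaks did. A gene of each layer group was again found at either end: Bcl11b and Foxp2 among the deep-layer genes, Cux2 and Rorb among the upper-layer genes. The genes with dense surroundings, Bcl11b and Cux2, were also those with the most distal peaks per 100 kb. Neurod2 had as dense surroundings without many distal peaks.

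**Figure D4:**
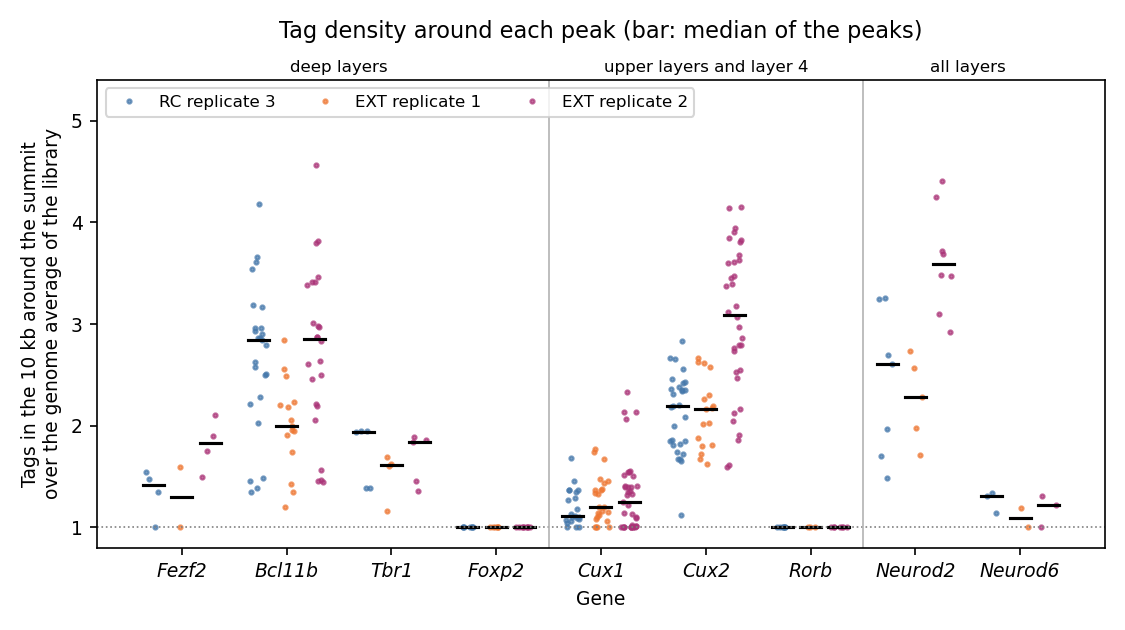
Tags in the 10 kb around each peak summit as a ratio to the genome average of the library (y axis, where 1 means at or below average) for the peaks of each gene (x axis) in RC replicate 3 and EXT replicates 1 and 2; points are peaks and bars their medians. Bcl11b, Cux2 and Neurod2 have medians of 2.00 to 3.59, while every point of Foxp2 and Rorb lies at 1.

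The libraries can be compared at the regions that all 3 lists hold, promoters included, although neighbouring peaks share tags. At 9 such regions of Bcl11b the median ratio was 2.93 in RC replicate 3 against 2.00 and 3.38 in EXT replicates 1 and 2. EXT replicate 1 was the lowest at 8 of the 9 and EXT replicate 2 the highest at 8, so the EXT libraries lay on both sides of the RC library. At 9 regions of Cux2 the medians were 2.35, 2.27 and 3.60, with EXT replicate 2 highest at all 9. Cux1, with 17 regions, had medians of 1.11, 1.20 and 1.25, and RC replicate 3 was below both EXT libraries at 7 of the 17. EXT replicate 2 was also the highest at all 3 such regions of Neurod2, and it had the highest median ratio over the windows with at least 3 peaks. At Tbr1, with 2 regions, RC replicate 3 was the highest at both, with a median of 1.95 against 1.62 and 1.85.

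Other factors of the same layers were taken as lists, to see whether the order of promoter peaks extended to them. Of 9 further upper-layer factors, 8 had a promoter peak in RC replicate 3, and 8 and 9 did in EXT replicates 1 and 2, and 7 had one in all 3. Lhx2 and Lmo4, LIM-domain proteins, had one in every list, and Bhlhe22 and Mef2c in 2. Of 16 further deep-layer factors, 8, 7 and 10 had one in the respective lists, 5 had one in all 3, and 5 in none. Bcl6, a transcriptional repressor, and Foxp1, a forkhead relative of Foxp2, were peaked in all lists, and Lmo3 and Nfia in none. Over all protein-coding genes 49.4% were peaked in all 3 lists and 36.9% in none. The counts of 7 of 9 upper-layer and 5 of 16 deep-layer factors stand in the opposite order to those of the members, and neither difference was tested. For 4 genes of each list both gene ends were used, since the promoter table lacks them.

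Of 8 factors of progenitors or of all glutamatergic neurons, 4 were peaked in every list, among them Emx1 and Neurod1, and 3 in none, among them Eomes, which marks intermediate progenitors, and Nhlh2. Of 17 interneuron factors, 7 were peaked in all 3 lists and 7 in none. Dlx1 and Dlx5, homeodomain proteins of interneuron development, were peaked in all 3, and Lhx8 in none. Promoter peaks were therefore also found at factors of neurons that the members do not mark, at 7 of 17 beside the 49.4% of all protein-coding genes.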

How the data were processed

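Peaks were called by the authors in each library separately with MACS2 2.2.4 on mm10, without a control, with a tag shift of -75 bp and an extension of 150 bp, all duplicates kept and a q-value cutoff of 0.05, per the file headers. The submitters' processing notes name cutadapt 1.17, HISAT2 2.1.0, BWA 0.7.17, SAMtools 1.8 and bedtools 2.27.1. The aligner of the ATAC-seq reads was not given in the sources used here. The deposited pileup is a coverage signal, in whole tags although the headers set scaling to the library total. The authors' fold is the ratio of pileup to background, each with 1 tag added, and the deposited −log10 q values rest on the same pair. Background tags were computed from fold and pileup.

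Gene spans and starts come from RefSeq tables of GRCm38.p6. Peaks were called present on an overlap of at least 1 bp and merged across lists likewise. No read counts per region were used, and no p-value was computed. Scripts ran in Python 3.11.15 with pandas 2.3.3 and were tested on simulated data. For EXT replicate 2 the title and the number in the file's name differ, and the title was used. EXT replicate 3 and the 6 lncRNA capture libraries were not analysed here. The members and gene lists were chosen with earlier results of these data known. From each further factor list the text names the 2 genes with promoter peaks in most and the 2 in fewest complete lists, ties by alphabet; 1 gene so selected is not reported here. Alternatives were lists of equal length, only peaks of −log10 q 5 or more, summits in place of peaks, promoter windows of 500 bp and 2 kb, flanks of 10 and 50 kb, a reciprocal overlap of 50% and leaving out each library. Leaving out narrow peaks or Foxp2 was added after the data were seen.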

Additional observations from a re-analysis of the deposited data

How the results depend on the processing

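The number of members with a promoter peak in all complete lists was 6 and ranged from 4 to 7 over window widths, stricter lists, summits and lists left out, and was 3 without peaks of at most 165 bp, which also left 93 merged distal regions in place of 147. Distal regions that both EXT lists held and RC replicate 3 lacked numbered 7 and became 2 with only peaks of −log10 q of at least 5, 4 with lists of equal length, 4 with a promoter window of 2 kb and 4 without peaks of at most 165 bp. The ratio of deep-layer to upper-layer distal density was 0.566 and became 0.628 with a promoter window of 500 bp, 0.640 with a flank of 50 kb and 0.694 without peaks of at most 165 bp, and it reversed to 1.56 with Foxp2 left out; the cause was not tested except that Foxp2 holds most of the deep-layer length. The share of distal regions in all lists compared was 24.5% and ranged from 33.3 to 43.8% when 1 list was left out, since fewer lists must then share a region. Of the 54 checks on single members, 49 kept the number of lists with a promoter peak within 1.5 times. This limit counts a change between 3 and 2 lists as kept. Fezf2 fell from 3 lists to 2 with summits in place of peaks. Bcl11b fell from 3 to 2 with a promoter window of 500 bp and without peaks of at most 165 bp. Rorb rose from 2 to 3 with a window of 2 kb. No paired analysis was possible because only 1 RC list covers the members and no test was made. Total depth differs between the libraries by less than the number of peaks does, and weak peaks near the cutoff can be present in 1 list and absent in another without a measured difference in tags.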
